A study of Homo sapiens with 4 samples.

Results

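AKT kinases and the subunits and regulators of the mTOR complexes were examined as a set of 9 genes, AKT1, AKT2, MTOR, RPTOR, RICTOR, TSC1, TSC2, RHEB and DEPTOR. They were chosen by name for their place in the pathway, with earlier results of these data known, and the rule itself uses no measured value. They are 9 of the 36359 genes in the table, and all 9 were among the 21630 genes with enough counts to be tested. The cells were ACHN, an established line from a human renal carcinoma, grown in MEM with serum and transfected by lipofection with the control siNC (2 libraries) or with siRNA against PRR11 (siPRR11, 2 libraries), and their RNA was sequenced. PRR11 encodes a proline-rich protein with reported roles in the cell cycle. The comparison of siPRR11 with siNC asked what PRR11 silencing does downstream in these cells. All 4 libraries came from 1 cell line with no other alteration named in the labels, the time between transfection and harvest is not given in the sources used here, and nothing says which siPRR11 duplex went into which culture. The labels number the libraries of a group as replicates and do not say that they came from separate cultures, so the p-values measure only the spread between these libraries, which may be technical.

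AKT kinases are recruited to the plasma membrane by the lipid product of PI3K, are phosphorylated there, and pass growth factor signals on to metabolism, survival and growth. The kinase mTOR works in a pair of complexes. With Raptor (RPTOR) it forms mTORC1, which stands downstream of AKT and drives protein synthesis, and with Rictor (RICTOR) it forms mTORC2, which stands upstream and phosphorylates AKT. The TSC1 and TSC2 proteins hold back RHEB, the small GTPase that switches mTORC1 on at the lysosome, and DEPTOR binds mTOR and restrains it. Over-activity of this pathway is common in renal cell carcinoma, where mTOR inhibitors are in clinical use. Most of its regulation runs through phosphorylation, which RNA-seq does not measure, and the values here are mRNA levels only.

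Counted reads numbered 83068637 and 59003839 in siNC and 92612749 and 84279389 in siPRR11. PRR11 itself was at 41.3 and 40.4 CPM (counts put on one library size, after TMM normalization by edgeR, which also corrects for composition) in siNC and at 15.3 and 14.0 CPM in siPRR11, so that 35.9% of the control level remained (log2 fold change -1.48, SE 0.0909, adjusted p = 3.35e-06, quasi-likelihood test of edgeR, adjusted by Benjamini-Hochberg across every gene tested). Of the 6 renal epithelial markers listed, 5 were at or above 1 RPKM in every library and CDH6 was at or near 0, whereas none of the 4 leukocyte, 3 endothelial and 3 fibroblast markers reached 1 RPKM. The summed RPKM (reads scaled to exonic length and library total) of the renal markers ranged from 314.7 to 373.0 in siNC and from 368.6 to 397.5 in siPRR11, which overlap. The leukocyte markers summed to 0.577 to 0.86 RPKM in siNC and 0.474 to 0.787 in siPRR11, the endothelial markers to at most 0.0224 and 0.0468, and the fibroblast markers to at most 0.0439 and 0.0671. In a bulk culture fewer cells that carry a transcript and less of it per cell cannot be told apart.

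Of the 9 genes, AKT1 passed an adjusted p of 0.05, higher in siPRR11, against 16.7% of all genes tested (7.61% called higher and 9.14% called lower). At 1 of 9, the share of members called was no larger than that background, nor than the 26.9% called among the 8072 genes whose average log2 CPM was 4 or more. None of the members was called lower, whether by edgeR, DESeq2 or limma, and 0 of those fitted lower had an unadjusted p under 0.05. The fitted folds of the 9 members lay between 1.05 and 1.25 in either direction, and their median absolute log2 fold change was 0.116, beside 0.222 over all genes tested and 0.159 over those more abundant genes. In 5 members both siPRR11 libraries lay above both siNC libraries, a pattern that 29.1% of all genes showed. In 2 members both lay below, as in 29.3% of all genes, and in the other 2 the groups overlapped.

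**Figure D1:**
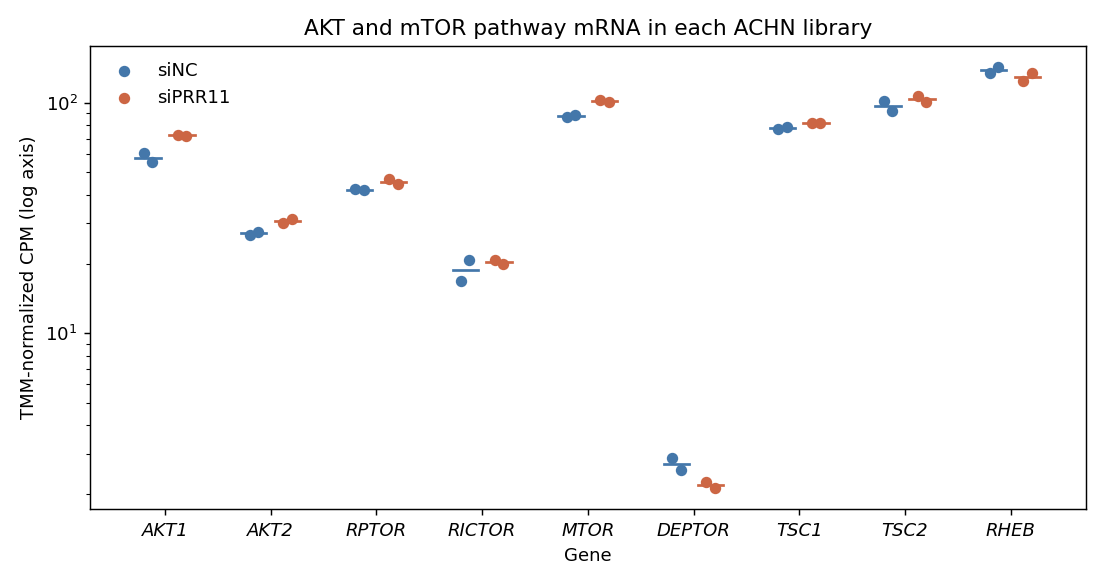
TMM-normalized CPM (log axis) of the 9 members in each siNC and siPRR11 library (points, 2 per group), with the mean of each group as a bar. The siPRR11 points of AKT1, at 72.6 and 72.0 CPM, stand clear above the siNC points, at 60.4 and 55.5 CPM, while those of RICTOR and TSC2 overlap.

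Per length of exon, RHEB was the most abundant member in siNC, with a mean of 38.7 ± 1.61 RPKM (SD, n = 2). TSC2 (8.59 RPKM), TSC1 (7.72 RPKM), MTOR (7.12 RPKM), AKT1 (5.10 RPKM) and RPTOR (4.40 RPKM) followed, and AKT2 (1.78 RPKM), RICTOR (1.37 RPKM) and DEPTOR (1.02 RPKM) were lowest. RICTOR, the scaffold of mTORC2, was thus present at a lower mRNA level per length than RPTOR, the scaffold of mTORC1. Between every pair of neighbours in this order the siNC libraries did not overlap. The length used is that of all annotated exonic bases of a gene (11162 for AKT1, 15035 for AKT2 and 12119 for MTOR). It is not the length of the mRNA forms present, which were not determined, so the order depends on the annotation. MLST8, a subunit outside the 9, stood between RHEB and TSC2.

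The sequence before the start of AKT1 is shown because AKT1 was the member called, and those of AKT2 and MTOR because AKT2 is its paralog and MTOR had the next lowest p-value. The sequences are the 250 bases before the start from RefSeq (GRCh38.p14), written 5′ to 3′ on the strand of the gene, at chr14:104795749-104795998 (minus strand) for AKT1, chr19:40285346-40285595 (minus) for AKT2 and chr1:11262552-11262801 (minus) for MTOR, and capitals mark the GC box, GGGCGG or CCGCCC. The RefSeq start can differ from the outer end of the gene as counted. The counted AKT2 gene ends at 40285536, so most of the AKT2 window falls within it. Of all windows examined, that of TSC2 lies within the gene as counted, and only that of MTOR lies wholly outside it.
AKT1: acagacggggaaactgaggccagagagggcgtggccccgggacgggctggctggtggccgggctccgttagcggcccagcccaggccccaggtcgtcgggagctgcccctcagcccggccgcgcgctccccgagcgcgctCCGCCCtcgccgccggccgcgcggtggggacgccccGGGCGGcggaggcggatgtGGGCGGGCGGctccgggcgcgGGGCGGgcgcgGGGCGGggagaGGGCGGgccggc
AKT2: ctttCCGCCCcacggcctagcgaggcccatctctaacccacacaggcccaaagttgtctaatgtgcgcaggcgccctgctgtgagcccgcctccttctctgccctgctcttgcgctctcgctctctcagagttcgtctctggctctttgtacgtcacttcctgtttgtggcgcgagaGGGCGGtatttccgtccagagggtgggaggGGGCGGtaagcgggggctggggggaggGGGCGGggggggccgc
MTOR: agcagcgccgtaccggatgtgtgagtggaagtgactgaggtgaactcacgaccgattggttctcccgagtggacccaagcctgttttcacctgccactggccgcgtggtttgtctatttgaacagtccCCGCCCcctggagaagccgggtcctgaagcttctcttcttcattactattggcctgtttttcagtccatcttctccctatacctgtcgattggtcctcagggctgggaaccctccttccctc
The AKT1 window was 83.2% G and C and held 7 GC boxes, of which a pair overlapped each other. The AKT2 window (66.0% G and C) held 4, and the MTOR window (55.6%) held 1. GC boxes are letters that Sp1-family factors are known to bind. Of the 8 members whose windows were examined, 7 held a GC box, against 42.64% of all 35116 RefSeq promoters. The window of DEPTOR was not examined. That background was not limited to genes expressed in these cells, as the members are, so the shares are not like for like. The E-box CACGTG was found in 1 of the 8, TSC2 (6.34% of all promoters), and the forkhead core GTAAACA or TGTTTAC in 0 of the 8 (2.98%). RPTOR held none of the motifs searched. A match describes the letters in the window and says nothing of binding.

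AKT1, the most widely expressed of the AKT kinases, lies at chr14:104769349-104795751 on the minus strand of GRCh38. It was at 60.4 and 55.5 CPM in siNC and at 72.6 and 72.0 CPM in siPRR11. Both siPRR11 libraries lay above both siNC libraries, and the 2 siPRR11 libraries lay closer together than the 2 siNC libraries. From a mean of 57.9 ± 3.46 CPM (SD, n = 2) to one of 72.3 ± 0.407 CPM, AKT1 rose 1.25-fold (log2 fold change 0.32, SE 0.0784, 95% interval 0.15 to 0.49, adjusted p = 0.0162, edgeR). The change was modest among all genes, since 36.0% of the genes tested had a larger absolute log2 fold change. That share includes genes with low counts, and AKT1 had an average log2 CPM of 6.03. Over the 8072 genes at 4 or more, the median absolute log2 fold change was 0.159, below that of AKT1. Without siPRR11 replicate 1 the log2 fold change was 0.32, and without siPRR11 replicate 2 it was 0.33. AKT1 was not called in either of these fits, although its fold change hardly moved. Each leaves a lone siPRR11 library, so the spread comes from the siNC libraries, and fewer genes were called over the whole table too. By limma on log2(RPKM + 1) or log2(RPKM + 0.1) the adjusted p was 0.0596 or 0.0529. Of the exonic bases of AKT1, 5.94% are also covered by RP11-982M15.2, a gene on the other strand, whose own counts rose (log2 fold change 0.43, adjusted p = 0.031, from 6.97 and 6.11 to 8.73 and 8.91 CPM). Use of strand in the counting is not stated in the sources used here, so that reads in the shared bases cannot be told apart, and their part in the rise of AKT1 was not tested.

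AKT2, the paralog best known from insulin-driven glucose uptake, lies at chr19:40230317-40285536 (minus strand) and shares no exonic base with another gene. Its levels were 26.8 and 27.6 CPM in siNC and 30.0 and 31.3 CPM in siPRR11. The siPRR11 libraries again lay above the siNC libraries, by a smaller margin than for AKT1. The log2 fold change was 0.17 (SE 0.0857, 95% interval -0.01 to 0.36) and did not pass the test (adjusted p = 0.2, edgeR).

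Per length, AKT1 was the more abundant of the pair in every library, at 5.32 and 4.88 RPKM in siNC and 6.62 and 6.55 RPKM in siPRR11, beside 1.76 and 1.80 RPKM and 2.03 and 2.12 RPKM for AKT2. The ratio of AKT2 to AKT1 within a library was 0.33 and 0.369 in siNC and 0.307 and 0.323 in siPRR11, a log2 difference of -0.15. It was lower in both siPRR11 libraries, with no overlap, and the difference was -0.23 without siNC replicate 1 and -0.068 without siNC replicate 2. With 2 libraries against 2, the exact two-sided permutation test of a ratio cannot go below p = 0.333, which is the value it gave.

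MTOR, the catalytic subunit of both complexes, lies at chr1:11106535-11262507 (minus strand). It was at 86.6 and 88.8 CPM in siNC and at 102.9 and 100.5 CPM in siPRR11. All of the siPRR11 values lay above the siNC values, and the gap between the groups was wider than the spread within either. The means were 87.7 ± 1.56 and 101.7 ± 1.68 CPM (SD, n = 2 in both groups), and the log2 fold change was 0.21 (SE 0.0728, 95% interval 0.05 to 0.37). Its unadjusted p was 0.0128 and its adjusted p 0.0663 (edgeR), which missed the threshold, and it passed where genes needed at least 10 counts in every library (adjusted p = 0.0487). The antisense gene MTOR-AS1 covers 1.815% of the exonic bases of MTOR and was itself higher in siPRR11, at 3.68 and 3.79 CPM in siNC and 5.45 and 5.30 CPM in siPRR11 (log2 fold change 0.52, adjusted p = 0.0212, edgeR), and its part in the MTOR counts was not tested.

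The scaffolds of the complexes showed smaller differences. RPTOR, which presents substrates to mTORC1 (chr17:80544819-80966371, plus strand), was at 42.3 and 41.7 CPM in siNC and at 46.6 and 44.4 CPM in siPRR11. Its groups did not overlap, and its log2 fold change of 0.12 (SE 0.0798, 95% interval -0.06 to 0.29) did not pass the test (adjusted p = 0.365, edgeR). RICTOR, which defines mTORC2 (chr5:38937919-39074408, minus strand), was at 16.9 and 20.9 CPM in siNC and at 20.9 and 19.9 CPM in siPRR11. The siNC libraries lay farther apart than the groups did, and the log2 fold change was 0.11 (SE 0.11, 95% interval -0.13 to 0.35, adjusted p = 0.539, edgeR), or -0.03 without siNC replicate 1. The ratio of RICTOR to RPTOR, per length and within a library, was 0.277 and 0.347 in siNC and 0.31 and 0.311 in siPRR11. These groups overlapped, with a log2 difference of 0.00 (exact permutation p = 1) that was -0.16 without siNC replicate 1 and 0.16 without siNC replicate 2.

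DEPTOR, the inhibitory partner of mTOR in both complexes (chr8:119873717-120050913, plus strand), was the member with the fewest reads, at 234 and 148 counts in siNC and 213 and 182 counts in siPRR11. That is 2.86 and 2.55 CPM in siNC and 2.26 and 2.13 CPM in siPRR11. Both siPRR11 libraries were lower, and the log2 fold change of -0.31 had the widest interval of the 9 members (SE 0.173, 95% interval -0.69 to 0.07, adjusted p = 0.262, edgeR). Of its exonic bases, 9.611% are also covered by KB-1471A8.1 on the other strand, the largest such share among the members, and the part of those reads was not tested. The log2 fold change of KB-1471A8.1 was -0.33 (adjusted p = 0.518, edgeR). At this depth a fall to the lower end of that interval and no fall could not be separated. Within a library, the ratio of DEPTOR to MTOR per length was 0.153 and 0.133 in siNC and 0.101 and 0.0978 in siPRR11, a log2 difference of -0.52 with no overlap between the groups and an exact permutation p of 0.333, the smallest that 2 against 2 allows.

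TSC1, which stabilizes TSC2 (chr9:132891348-132944633, minus strand), was at 77.0 and 78.7 CPM in siNC and at 82.2 and 81.8 CPM in siPRR11. TSC2, the subunit that makes RHEB hydrolyse its GTP (chr16:2047465-2088720, plus strand), was at 101.8 and 92.4 CPM in siNC and at 106.6 and 100.9 CPM in siPRR11. The groups were separate for TSC1 and overlapped for TSC2. Neither passed the test, with a log2 fold change of 0.08 for TSC1 (SE 0.0732, 95% interval -0.08 to 0.24, adjusted p = 0.539) and 0.09 for TSC2 (SE 0.079, 95% interval -0.08 to 0.27, adjusted p = 0.465, edgeR for both). The ratio of TSC1 to TSC2 per length was 0.849 and 0.955 in siNC and 0.865 and 0.91 in siPRR11, which overlapped (log2 difference -0.02, exact permutation p = 1, from -0.11 without siNC replicate 1 to 0.064 without siNC replicate 2). The log2 fold change of TSC2 ranged from 0.023 without siNC replicate 2 to 0.16 without siNC replicate 1. Exons of NTHL1 and PKD1 on the other strand cover 3.714% of its exonic bases, and the part of those reads was not tested. RHEB, the target of the TSC proteins and activator of mTORC1 (chr7:151466012-151520120, minus strand), was at 134.8 and 143.1 CPM in siNC and at 124.8 and 134.6 CPM in siPRR11. Its siPRR11 libraries lay below the siNC libraries with the nearest pair almost touching, and its log2 fold change was -0.10 (SE 0.0761, 95% interval -0.27 to 0.07, adjusted p = 0.422, edgeR), ranging from -0.16 without siPRR11 replicate 2 to -0.044 without siPRR11 replicate 1. Of its 50-base stretches, 9.536% also occur in transcripts of other genes, among them the pseudogenes RHEBP1 and RHEBP2, so that its count is uncertain by the reads they share.

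**Figure D2:**
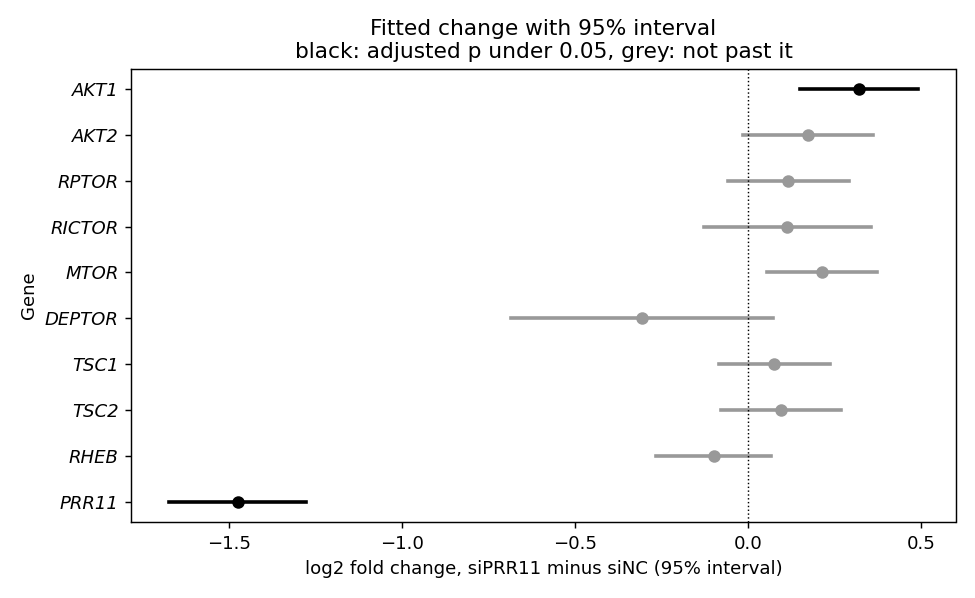
Fitted log2 fold change, siPRR11 minus siNC, with its 95% interval (edgeR, 2 libraries per group), for the 9 members and for PRR11, black where the adjusted p was under 0.05. AKT1 at 0.32 is the member in black, the intervals of 7 members span 0, and PRR11 at -1.48 stands far to the left.

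The intervals give what these libraries allow under the fitted model, which borrows spread from all genes. For 7 of the 9 members the interval spanned 0, and AKT1 and MTOR were the exceptions. Apart from DEPTOR, the bound farthest from 0 was the upper one of AKT1, at 0.49. The order of the 4 libraries was the same for AKT1 and RPTOR (lowest in siNC replicate 2 and highest in siPRR11 replicate 1) and the same for MTOR and TSC1 (lowest in siNC replicate 1 and highest in siPRR11 replicate 1). With 4 libraries such an order is a description only.

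**Figure D3:**
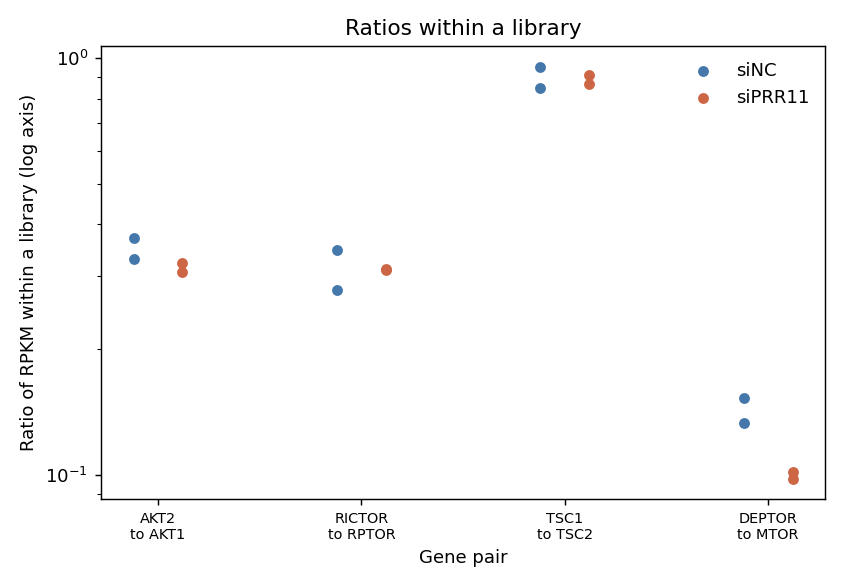
Ratios of RPKM within each library (log axis, 2 points per group) for 4 pairs of members. The ratios of AKT2 to AKT1 and DEPTOR to MTOR lie lower in both siPRR11 libraries, and those of RICTOR to RPTOR and TSC1 to TSC2 overlap.

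Around the 9 members, 133 genes in 8 lists described what feeds AKT and mTOR and what lies below them, and 132 of them were tested. In siPRR11, 9 were called higher and 19 lower (21.21% called, against 16.7% of all genes and 26.9% of the 8072 more abundant ones), and the median log2 fold change was -0.07, beside 0.00 over all genes. The list of 10 other complex subunits also holds genes that assemble mTOR and genes around TSC and RHEB. Of its genes, 3 rose and 1 fell (40.0% called, beside 16.7% of all genes and 26.9% of the more abundant ones). TELO2 (log2 fold change 0.37, adjusted p = 0.0153) and TTI2 (0.33, adjusted p = 0.0193), parts of the chaperone complex that assembles mTOR and related kinases, rose, and their partner TTI1 did not pass the test (-0.07, adjusted p = 0.665). TBC1D7, the third subunit of the TSC complex, rose as well (0.46, adjusted p = 0.0404, edgeR). AKT1S1, which encodes the AKT substrate PRAS40 and an inhibitor within mTORC1, fell from 45.4 and 43.2 CPM in siNC to 35.5 and 33.8 CPM in siPRR11 (-0.35, adjusted p = 0.0124, edgeR). MLST8, the subunit common to both complexes, was at 49.2 and 47.5 CPM in siNC and 52.2 and 52.7 CPM in siPRR11 (0.12, adjusted p = 0.348), and MAPKAP1, which encodes the mTORC2 subunit SIN1, stood at -0.14 (adjusted p = 0.221). The call of TELO2 was lost without siPRR11 replicate 1 (adjusted p = 0.153), and the calls of TTI2, AKT1S1 and TBC1D7 without either siPRR11 library (adjusted p = 0.0926 and 0.173, 0.0536 and 0.139, and 0.128 and 0.216). TBC1D7 was also lost without siNC replicate 1 (0.0777), by DESeq2 (0.0618) and by both limma fits, which lost AKT1S1 too (0.074 and 0.0682).

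Upstream of AKT, 5 of the 18 genes of the PI3K arm were called lower and 0 higher by edgeR with its usual filter. Over all genes 9.14% were called lower and 7.61% higher. The share of the arm called was 27.78%, beside 16.7% of all genes and 26.9% of the more abundant ones. At an unadjusted p under 0.05 by edgeR, 2 genes of the arm were higher and 6 lower. Higher calls numbered 1 by DESeq2, by edgeR with no filter or at least 10 counts in every library, and without siNC replicate 2, and 2 with the replicate block. TRIB3, a pseudokinase that binds AKT and holds it back, fell from 6.67 and 9.61 CPM in siNC to 1.56 and 2.69 CPM in siPRR11 (log2 fold change -1.94, SE 0.237, adjusted p = 0.000303, edgeR). PIK3CD, a catalytic PI3K subunit, fell from 14.8 and 14.6 to 9.29 and 8.26 CPM (-0.74, SE 0.108, adjusted p = 0.000877). The other 3 were the PI3K inhibitor PIK3IP1 (-0.46, adjusted p = 0.0341) and the regulatory subunits PIK3R2 (-0.28, adjusted p = 0.0465) and PIK3R3 (-0.28, adjusted p = 0.049), the last 2 named after their values were seen. The genes that fell thus include both a kinase subunit and inhibitors of the arm. PIK3R2 and PIK3R3 lost the call without siNC replicate 1 or either siPRR11 library (adjusted p from 0.105 to 0.375), and PIK3IP1 without siNC replicate 1 (0.206) or siPRR11 replicate 2 (0.0988). Both limma fits lost these 3 calls, and RLE scaling lost PIK3R3 (0.0504).

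Of the 31 nutrient sensing genes, which bring mTORC1 to the lysosome when amino acids are plentiful, 3 rose and 2 fell (16.13% called). Over all genes 16.7% were called, and of the 11 energy and stress inputs 18.18%. SESN1, a leucine sensor and p53 target that restrains mTORC1, rose from 10.5 and 10.1 CPM to 19.1 and 17.9 CPM (log2 fold change 0.85, adjusted p = 0.00024, edgeR). ITFG2 (0.41, adjusted p = 0.00552), of the KICSTOR complex, and SEC13 (0.39, adjusted p = 0.00579), of GATOR2, rose, and FNIP2 (-0.74, adjusted p = 0.00223), a partner of folliculin, and LAMTOR3 (-0.35, adjusted p = 0.0267), of the Ragulator, fell. Among the 11 energy and stress inputs, the AMPK subunit genes PRKAG2 (-0.45, adjusted p = 0.00252) and PRKAG1 (-0.26, adjusted p = 0.042) fell, and 0 were called higher by edgeR with its usual filter or by DESeq2 (2 were higher at an unadjusted p under 0.05, and 3 were called with the replicate block). The mTORC1 inhibitor gene DDIT4 stood at 0.02 (adjusted p = 0.904). LAMTOR3 lost its call without siPRR11 replicate 1 (0.125) or 2 (0.223), and PRKAG1 without these (0.262 and 0.23) or siNC replicate 1 (0.0991). Without siNC replicate 1, 4 of the nutrient sensing genes were called lower and 2 of the energy and stress inputs higher, and without siNC replicate 2, 1 of these inputs was called higher. By both limma fits the calls of FNIP2 (0.0824 and 0.0771), LAMTOR3 and PRKAG1 were lost.

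Among 18 genes of proteins that mTORC1 acts on directly or through S6 kinase, or that work with these in translation, 2 rose and 2 fell, and their median was -0.14. That was 22.22% called, beside 16.7% of all genes and 26.9% of the more abundant ones, and the median over all genes was 0.00. Of the 16 AKT and mTORC2 targets, 12.5% were called. EIF4EBP2, a repressor of cap-dependent translation, rose from 31.0 and 33.4 CPM to 42.3 and 45.0 CPM (log2 fold change 0.44, adjusted p = 0.00468), and RPS6KB2, an S6 kinase, rose by less (0.36, adjusted p = 0.0251). EIF4G1, the scaffold of the translation initiation complex, fell from 743.7 and 758.9 CPM to 517.0 and 494.0 CPM (-0.57, SE 0.0703, adjusted p = 0.000309, edgeR), and the adaptor gene GRB10 fell (-0.41, adjusted p = 0.00707). The main S6 kinase gene, RPS6KB1, stood at 0.02 (adjusted p = 0.899). Among 16 AKT and mTORC2 targets, MDM2, whose product restrains p53 and whose gene is a p53 target, rose from 110.6 and 128.8 CPM to 192.9 and 180.9 CPM (0.64, adjusted p = 0.000508), and the kinase gene SGK3 fell (-0.42, adjusted p = 0.0456). GSK3B, the AKT target that the study follows, had a log2 fold change of -0.06 (SE 0.0982, adjusted p = 0.718), with overlapping groups, and of 0.08 without siNC replicate 2. Without siPRR11 replicate 2 the calls of GRB10 (0.103), RPS6KB2 (0.25) and SGK3 (0.372) were lost, and without siNC replicate 2 those of RPS6KB2 (0.0552) and SGK3 (0.0602). DESeq2 lost SGK3 (0.0524), and both limma fits lost GRB10, RPS6KB2 and SGK3. Without siNC replicate 1, 6 of the mTORC1 targets were called lower and 3 of the AKT and mTORC2 targets higher.

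The last 2 lists are transcripts induced by FOXO and TFEB, factors that AKT or mTORC1 hold out of the nucleus. They held 0 genes called higher by edgeR with its usual filter, DESeq2 or limma, beside 7.61% of all genes. At an unadjusted p under 0.05 by edgeR, 0 FOXO-induced transcripts were higher and 7 lower, and 1 TFEB-induced transcript was higher and 11 lower. Over all 21630 genes tested, 6553 passed that unadjusted threshold in either direction. With the replicate block 3 FOXO-induced and 1 TFEB-induced transcripts were called higher, and with no filter 1 FOXO-induced transcript was. In all, 17.65% of the FOXO-induced and 26.32% of the TFEB-induced transcripts were called, beside 16.7% of all genes and 26.9% of the more abundant ones. Of 17 FOXO-induced transcripts tested, KLF6 fell from 33.3 and 28.4 CPM to 19.5 and 16.2 CPM (log2 fold change -0.79, adjusted p = 0.000797, edgeR), and SOD2 (-0.52, adjusted p = 0.0123) and PIK3IP1, which is also in the PI3K arm, fell too, with a list median of -0.21. For SOD2 the study reports the other direction in protein, with more of it by Western blot after PRR11 silencing. The values here are mRNA, and the difference was not tested. Of 19 TFEB-induced transcripts, the autophagy receptor gene SQSTM1 fell from 540.0 and 675.1 CPM to 371.9 and 442.3 CPM (-0.58, adjusted p = 0.00399), as did FNIP2 and the cathepsin gene CTSB (-0.41, adjusted p = 0.00258), and, named after their values were seen, CTSD (-0.33, adjusted p = 0.00981) and WIPI1 (-0.35, adjusted p = 0.0214). The list median was -0.21 here as well, beside 0.11 for the 9 members. Genes of these lists answer to many other factors, and what moved them was not tested. By both limma fits the calls of SQSTM1 (adjusted p = 0.0754 and 0.0658), FNIP2, SOD2, PIK3IP1 and WIPI1 were lost, and by limma on log2(RPKM + 1) that of CTSD (0.0503). SOD2 lost its call without siPRR11 replicate 2 (0.0698), and CTSD and WIPI1 without siPRR11 replicate 1 (0.0537 and 0.204) or 2 (0.0891 and 0.0995). The FOXO-induced transcripts called lower numbered 8 without siNC replicate 2 and 1 without siPRR11 replicate 2, and 3 were called higher without siNC replicate 1 and 2 without siPRR11 replicate 2. The TFEB-induced transcripts called lower numbered 3 without siPRR11 replicate 2.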

How the data were processed

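RNA from 2 siNC and 2 siPRR11 ACHN libraries was analysed, grouped by the sample labels. According to the study's methods and the labels, 2 μg of RNA went into stranded mRNA libraries for a DNBSEQ-T7 sequencer, reads were trimmed (Trimmomatic 0.36 in the submitters' processing notes), aligned to GRCh38 with STAR and counted with featureCounts (Subread 1.5.1). The annotation release and the strand setting are not given in the sources used here. The authors deposited raw read counts per gene, not normalized, and RPKM per gene, which match the count divided by exonic length and column total to within 3.08e-06% over 15916 genes.

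Counts were tested with edgeR 4.0.16 in R 4.3.3 (TMM, filterByExpr, quasi-likelihood fit on condition, Benjamini-Hochberg threshold 0.05). TMM factors lay between 0.983 and 1.018, and the biological coefficient of variation was 0.0856. Levels between genes were compared on RPKM, and ratios within libraries by an exact two-sided permutation test. Alternatives were RLE scaling, DESeq2 1.42.0, no filter, the replicate number as a block, at least 10 counts in every library, limma 3.58.1 with a trend on log2(RPKM + 1) or log2(RPKM + 0.1), and each library left out, where a lone library is assumed to vary like the other group. The fits were tested on simulated data.

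The members and the 8 lists were chosen with earlier results of these data known. Named genes are the members, PRR11, GSK3B and, per list, up to 3 called genes in each direction with the largest log2 fold change and an average log2 CPM of at least 1. Others named as chosen afterwards, or as values beside a member, fall outside that rule. In the lists, TRIM63 had too few counts to be tested and 8 genes stand in more than 1 list. Results for some genes are not reported here. Overlaps of exons and shared 50-base stretches came from the deposited exons and from GENCODE transcripts.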

Additional observations from a re-analysis of the deposited data

How the results depend on the processing

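The number of genes called over the whole table was 3622. It was 6988 with the replicate block, 1775 by limma on log2(RPKM + 1) and 1878 on log2(RPKM + 0.1). With a library left out it ranged from 2172 (without siPRR11 replicate 1) to 4590, and it was 2393 without siPRR11 replicate 2. Members called higher numbered 2 with the replicate block and 2 with at least 10 counts in every library, MTOR being added in both, 0 by either limma fit, and 0 to 1 with a library left out (0 without siPRR11 replicate 1 or 2). With the replicate block the adjusted p of AKT1 was 1.43e-05 and of MTOR 0.00467. Over all genes tested, the deviations of same-numbered libraries had a correlation of 0.165 (2 pairs). Genes with low counts are included there, and the well-counted genes were not measured apart. Nothing says that a number marks a shared culture. Of the listed genes, 9 were called higher and 19 lower. These counts were 20 and 41 with the replicate block, and 6 and 7 lower by limma with 1 and 0.1. Leaving out a library gave 6 to 15 higher (15 without siNC replicate 1) and 8 to 28 lower (8 without siPRR11 replicate 2). The log2 fold change of RICTOR ranged from -0.035 to 0.26 with a library left out, reversed without siNC replicate 1, and that of GSK3B from -0.20 to 0.077, reversed without siNC replicate 2. The cause of these differences was not tested. Of the members' log2 fold changes under the alternatives, 92 kept their direction and their side of the threshold, 2 passed it, 4 lost it and 1 changed sign. Depth limited DEPTOR most, with 148 to 234 counts per library.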
